A study of Homo sapiens with 6 samples.

Results

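Interferon-stimulated and antigen-processing genes were followed in MCF10A, an immortal, non-tumorigenic human mammary epithelial line, after C/EBPbeta-2, one of the protein isoforms made from the transcription factor gene CEBPB, had been added to it or not. The set holds 43 genes, each read at the probe sets whose only annotated symbol is that gene. The array annotation gave 76 such probe sets for 42 of them, out of 19775 genes read on the arrays, and STAT2 was not analysed here. The series has 6 arrays: 3 of the line carrying C/EBPbeta-2 and 3 of the line by itself (control). All cells had no further treatment and grew in medium with horse serum, insulin, hydrocortisone, epidermal growth factor and cholera toxin. The route by which C/EBPbeta-2 entered the cells, and whether they were a pool or a clone, are not given in the sources used here. Replicates are labelled as biological, but what set them apart is not stated, and the p-values cover only the spread between these samples, which may be technical.

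Interferons are secreted proteins that warn cells of virus. Type I and type III interferons act through receptor-bound Janus kinases on a complex that holds STAT2 and IRF9 and binds the interferon-stimulated response element in the promoters of its target genes, while interferon gamma acts through the gamma-activated site. The targets include enzymes and membrane proteins that block viral replication, sensors of foreign nucleic acid, the ubiquitin-like protein ISG15 with its enzymes, and the proteins that cut and carry peptides to MHC class I. Epithelial cells keep many of these genes at a low level without infection.

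The arrays varied in ways that did not follow the groups. Principal component 1 over every probe set (log2 intensity) held 44.1% of the variance and separated 2 arrays, replicate 1 of C/EBPbeta-2 and replicate 2 of control, from the rest. These also read highest at the 18S ribosomal RNA control probe sets, at 12.19 and 12.17 (log2 intensity) against 5.62 to 10.33 on the others. The poly-A spike-in RNA, added to samples as a labelling control, read only 3.83 in replicate 2 of the C/EBPbeta-2 group and 3.92 in replicate 1 of the control group, against 7.27 to 8.45 elsewhere. CEBPB itself (212501_at) differed by -0.62 (log2, C/EBPbeta-2 minus control, adjusted p = 1.00, limma), so this probe set did not check the labels. Keratin KRT5 (12.38 to 12.93, log2 intensity) and EPCAM (8.39 to 9.38), markers of the labelled epithelial cell type, were bright on all 6 arrays. KRT14 and CDH1, also epithelial markers, were lower with C/EBPbeta-2 (-3.00 and -2.14, adjusted p = 0.0347 and 0.0282, limma). In bulk RNA, fewer cells of a type and less RNA per cell cannot be told apart.

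Differences are given on the log2 intensity scale as C/EBPbeta-2 minus control, with the standard error (SE) from limma. A gene was called at a Benjamini-Hochberg adjusted p under 0.05 over all 19775 genes. Limma called 0 of the 42 genes, 0 higher and 0 lower, where 0.263% of all genes were called and 0.167% were called lower. At an unadjusted p under 0.05 there were 5 (11.9%, against 5.4% of all genes). The 2 groups did not overlap in 9 genes (21.4%, against 8.63% of all genes), of which 5 were lower and 4 higher with C/EBPbeta-2. A difference of 1 or more in size was seen in 5 genes (11.9%, against 2.57% of all genes), 4 lower and 1 higher. Of the 76 probe sets taken one by one, 0 were called by limma and 10 had an unadjusted p under 0.05, where 0.0659% of all probe sets were called. The median difference was 0.09 over the 42 genes and 0.01 over all genes, with 27 of the 42 above 0 and 15 below it. The 95% interval of the difference, not adjusted for the number of genes, lay within 1 of 0 for 21 of the 42 and reached past 1 in size for the other 21. The plot of differences by role shows IFI16 to the left of every other member.

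**Figure D1:**
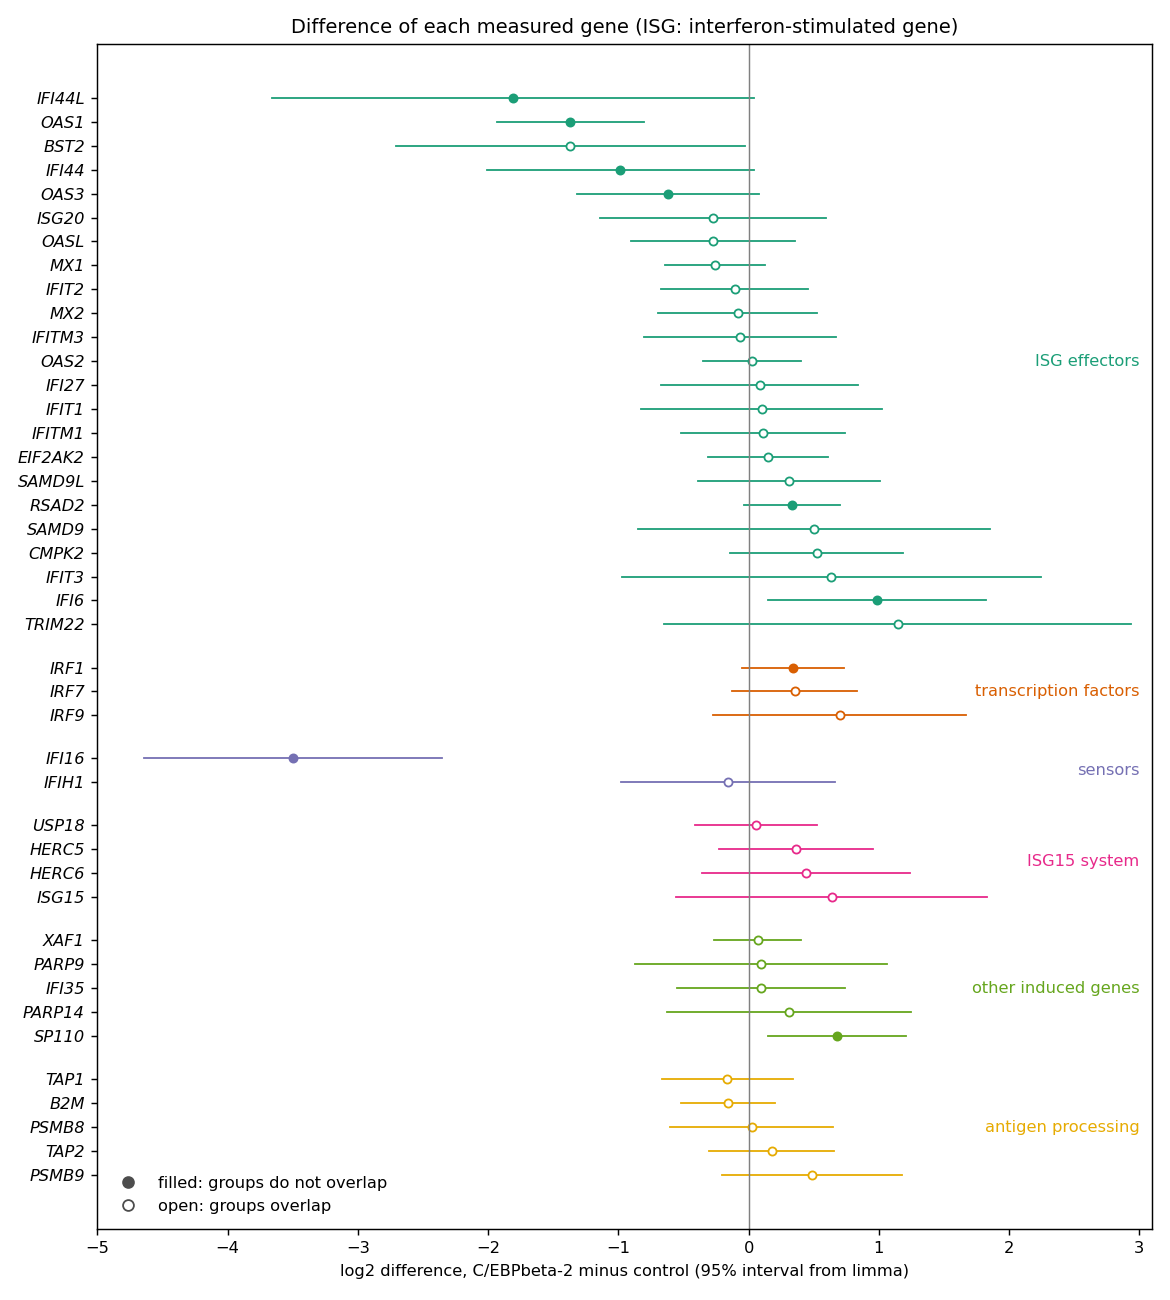
Log2 difference (C/EBPbeta-2 minus control, horizontal axis) of each of the 42 measured genes, grouped by role, with its 95% interval from limma; filled points mark genes whose 3 C/EBPbeta-2 arrays and 3 control arrays do not overlap. IFI16 lies at -3.50, and the intervals of most other genes cross 0.

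IFI16, a PYHIN-family protein that binds DNA in the nucleus and cytoplasm and signals its presence, had the largest difference of the set. Its probe set 206332_s_at read 5.77, 6.86 and 7.32 (log2 intensity) on the 3 C/EBPbeta-2 arrays and 10.25, 9.47 and 10.73 on the 3 control arrays. Every C/EBPbeta-2 array lay far below every control array, and both groups lay above the array medians of 4.46 to 4.56. The group means were 6.65 ± 0.80 and 10.15 ± 0.63 (SD, n = 3), a difference of -3.50 (SE 0.48, 95% interval -4.65 to -2.36), or 11.3-fold lower with C/EBPbeta-2. With an adjusted p of 0.0650 (limma) it just missed the call, at rank 65 by p among all 19775 genes and rank 20 among the differences below 0. It was called in 5 of 18 tested alternatives: after quantile normalization (adjusted p = 0.0403), with dim probe sets left out (0.0330), with array weights (0.0221), with a prior variance that was trended and robust (0.0314) and with the mean of its probe sets (0.0425). The other 13 did not call it, and over all 18 the adjusted p ran from 0.0221 to 0.462.

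The size of the IFI16 difference was similar in each division of the arrays tried. It was -3.39 between the 2 arrays of low spike-in level and -3.56 among the 4 of high level. It was -3.71 between the 2 arrays highest in 18S RNA and -3.40 among the other 4, and from -3.84 to -3.06 when any 1 array was left out. The other probe sets of IFI16 gave -3.63 (208966_x_at) and -3.78 (208965_s_at), again with no overlap of the groups. All 3 carry a suffix for probes that may match more than 1 transcript. The other PYHIN genes, looked up after these values were seen, stood below every array median on average: AIM2, the sensor that assembles an inflammasome on cytosolic DNA, differed by -0.06, MNDA by 0.18 and PYHIN1 by 0.19 (adjusted p = 1.00 for each, limma).

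IFI16 has a pair of start sites in RefSeq (GRCh38.p14). The windows from 250 bases before to 50 bases after each are printed because this gene carries the largest difference; they lie at chr1:159008741-159009040, plus strand, and chr1:159009657-159009956, plus strand. Neither held a match to the interferon-stimulated response element (GAAA, any 2 bases, GAAA), the gamma-activated site (TTCNNNGAA) or the C/EBP motif (TTGCNNAA), searched on both strands, so no base is in capitals. This says only that these letters are not in these windows. The start 2 window holds gaaacgaaa, with fewer bases between the GAAA runs, which the search did not count.
IFI16 start 1: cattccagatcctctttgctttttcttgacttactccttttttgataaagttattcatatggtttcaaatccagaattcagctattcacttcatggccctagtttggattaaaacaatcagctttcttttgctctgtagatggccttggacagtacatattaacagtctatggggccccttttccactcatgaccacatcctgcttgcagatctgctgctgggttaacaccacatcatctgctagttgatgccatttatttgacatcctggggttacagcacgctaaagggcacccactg
IFI16 start 2: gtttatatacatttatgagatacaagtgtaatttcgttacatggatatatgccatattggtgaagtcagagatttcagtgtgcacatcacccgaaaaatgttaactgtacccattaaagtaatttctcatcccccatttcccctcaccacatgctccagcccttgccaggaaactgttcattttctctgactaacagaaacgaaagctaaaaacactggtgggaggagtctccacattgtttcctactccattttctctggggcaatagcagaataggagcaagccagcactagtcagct

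IFIH1, the other sensor in the set, detects long double-stranded RNA. It read 5.29, 5.85 and 5.51 with C/EBPbeta-2 and 6.01, 4.96 and 6.15 in control, and the groups overlapped (difference -0.16, SE 0.34, adjusted p = 1.00, limma).

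**Figure D2:**
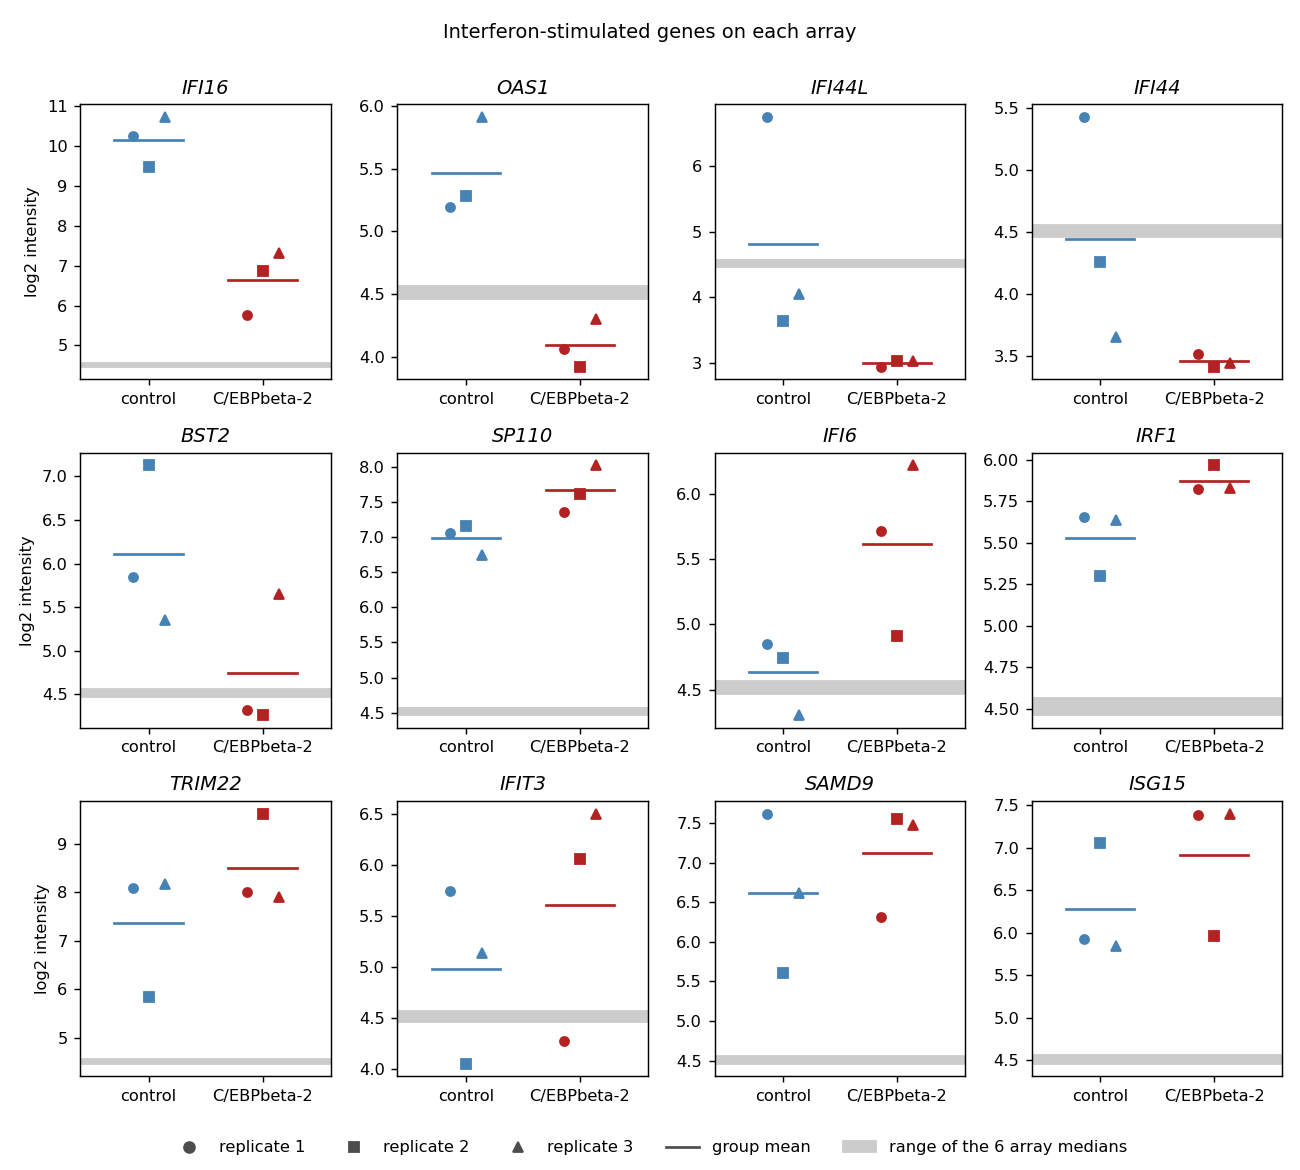
Log2 intensity on each array for 12 genes, with 1 point for each replicate, a line at the group mean and a grey band over the range of the 6 array medians (4.46 to 4.56). The groups do not overlap in IFI16, OAS1, IFI44L, IFI44, SP110, IFI6 and IRF1, with the largest difference in IFI16. IFI44L and IFI44 are raised most on control replicate 1, and TRIM22, IFIT3 and SAMD9 are lowest on control replicate 2.

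OAS1 showed the next smallest p. The oligoadenylate synthetases are activated by double-stranded RNA and make the small messenger that switches on RNase L, which degrades RNA. OAS1 (202869_at) read 4.06, 3.92 and 4.30 with C/EBPbeta-2 and 5.20, 5.28 and 5.91 in control. Every control array was above and every C/EBPbeta-2 array below the array medians, and no detection call gives a floor for the low values. The difference was -1.37 (SE 0.24, 95% interval -1.93 to -0.81, adjusted p = 0.137, limma), and no alternative called it (adjusted p 0.0594 to 0.568). Its second probe set, 205552_s_at, gave -1.81 with the groups again apart, and the difference was -1.28 at the low and -1.42 at the high spike-in level.

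The other synthetases did not all lie on the same side of 0. OAS3 (218400_at) read 5.99, 6.38 and 6.42 with C/EBPbeta-2 and 6.75, 6.44 and 7.47 in control, groups that did not overlap by a narrow margin, with a difference of -0.62 (SE 0.29, adjusted p = 1.00, limma). It was -0.33 without control replicate 3, and its dimmer probe set gave 0.31. OAS2 differed by 0.03, at a mean below every array median. OASL, a related protein without synthetase activity, differed by -0.28 (SE 0.26). Whether OAS1 differed more than its relatives was not tested.

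The promoter window of OAS1 (chr12:112906712-112907011, plus strand) is printed as that of the gene next to IFI16 by p. It held 1 match to the gamma-activated site, at -168 to -160 from the first transcribed base, and 1 to the C/EBP motif, at -57 to -50, both in capitals. It held no match to the response element letters as searched. The run gaaacgaaa, with only 1 base between the GAAA runs, was not counted and stands in lower case.
OAS1: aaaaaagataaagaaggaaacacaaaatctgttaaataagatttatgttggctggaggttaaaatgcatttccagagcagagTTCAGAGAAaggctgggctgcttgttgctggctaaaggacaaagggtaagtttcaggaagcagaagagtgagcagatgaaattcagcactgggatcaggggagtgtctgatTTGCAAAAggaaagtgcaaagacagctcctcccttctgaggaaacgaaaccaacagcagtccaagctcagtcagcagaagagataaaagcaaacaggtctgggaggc

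IFI44L and IFI44, related cytoplasmic proteins of the interferon response, were highest on 1 control array. IFI44L (204439_at) read 2.94, 3.03 and 3.03 with C/EBPbeta-2 and 6.75, 3.64 and 4.05 in control. The C/EBPbeta-2 arrays lay close together at the low end of the scale, the groups did not overlap, and control replicate 1 stood far above the rest. The difference was -1.81 (SE 0.77, adjusted p = 0.966, limma), but -0.84 without control replicate 1. IFI44 (214453_s_at), also highest on control replicate 1, read 3.52, 3.42 and 3.44 against 5.43, 4.26 and 3.65, a difference of -0.99 (SE 0.43), or -0.50 without control replicate 1. Its second probe set (214059_at) gave -0.10 with overlap of the groups. At the low spike-in level, which pairs control replicate 1 with C/EBPbeta-2 replicate 2, the differences of IFI44L and IFI44 were -3.72 and -2.01, against -0.86 and -0.47 at the high level. DCN, a matrix proteoglycan on the fibroblast marker list, was also highest on control replicate 1, at 11.76 against 7.11 to 9.74 on the other 5 arrays. The rest of that list did not follow DCN. PDGFRA, PDGFRB and COL1A2 were lowest on control replicate 1, and COL1A1 and LUM were highest on C/EBPbeta-2 replicate 1.

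BST2 and IFITM3 are membrane proteins; BST2 (tetherin) holds budding virus at the cell surface and IFITM3 blocks fusion in endosomes. BST2 (201641_at) read 4.32, 4.26 and 5.65 with C/EBPbeta-2 and 5.85, 7.13 and 5.35 in control. Control replicate 2 was highest, and C/EBPbeta-2 replicate 3 lay above control replicate 3. The difference of -1.37 (SE 0.56, adjusted p = 0.898, limma) was -0.86 without control replicate 2. It was -2.81 between the 2 arrays highest in 18S RNA and -0.65 among the other 4. IFITM3 was bright and differed by -0.06 (SE 0.31), and IFITM1 by 0.11 (SE 0.26).

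The windows of IFI44L (chr1:78620198-78620497, plus strand) and BST2 (chr19:17405581-17405880, minus strand) are shown because these genes were among those that varied most between arrays of 1 group. Capitals mark matches. That of IFI44L held 2 matches to the response element, at -164 to -155 and -73 to -64. That of BST2 held 2 overlapping matches to it, from -130 to -115, and 2 to the gamma-activated site, the first of which overlaps the response element.
IFI44L: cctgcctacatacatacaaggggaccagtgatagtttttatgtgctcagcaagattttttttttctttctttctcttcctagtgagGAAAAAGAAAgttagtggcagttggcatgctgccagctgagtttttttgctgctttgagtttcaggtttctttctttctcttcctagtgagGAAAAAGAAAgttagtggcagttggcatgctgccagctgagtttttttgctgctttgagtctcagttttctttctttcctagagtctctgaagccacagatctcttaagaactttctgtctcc
BST2: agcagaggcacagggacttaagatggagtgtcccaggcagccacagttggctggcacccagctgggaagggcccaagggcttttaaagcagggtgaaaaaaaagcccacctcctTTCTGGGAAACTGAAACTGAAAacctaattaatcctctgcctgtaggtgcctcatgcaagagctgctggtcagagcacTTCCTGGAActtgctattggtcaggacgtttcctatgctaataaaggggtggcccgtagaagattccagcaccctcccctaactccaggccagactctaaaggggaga

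TRIM22, SAMD9 and IFIT3 were lowest on control replicate 2. TRIM22 (213293_s_at), a ubiquitin ligase with antiviral activity, read 8.00, 9.63 and 7.91 with C/EBPbeta-2 and 8.09, 5.84 and 8.17 in control. The groups overlapped, with the highest value on C/EBPbeta-2 replicate 2. Its difference of 1.14 (SE 0.75, adjusted p = 1.00, limma) was 0.38 without control replicate 2 and 0.59 without C/EBPbeta-2 replicate 2. SAMD9 (228531_at), an antiviral factor and growth suppressor, read 6.32, 7.56 and 7.47 against 7.62, 5.61 and 6.61. IFIT3 (229450_at), a tetratricopeptide-repeat protein that works with IFIT1 in binding viral RNA, read 4.27, 6.06 and 6.50 against 5.74, 4.05 and 5.14. In both genes C/EBPbeta-2 replicate 1 and control replicate 2, the arrays set apart by component 1, were lower than the other 4. The differences were 0.50 (SE 0.56) and 0.63 (SE 0.67), and the second probe sets of the genes gave 0.04 and 0.36. SAMD9 was close to 0 without control replicate 2 and from 0.28 to 1.00 without any other 1 array. IFIT3 was 0.17 without control replicate 2, 0.19 without C/EBPbeta-2 replicate 3, 0.41 without C/EBPbeta-2 replicate 2, 1.02 without control replicate 1 and 1.31 without C/EBPbeta-2 replicate 1.

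The window of the second IFIT3 start (chr10:89332279-89332578, plus strand) shows the response element on the opposite strand, in capitals, at -94 to -85 and -51 to -42.
IFIT3 start 2: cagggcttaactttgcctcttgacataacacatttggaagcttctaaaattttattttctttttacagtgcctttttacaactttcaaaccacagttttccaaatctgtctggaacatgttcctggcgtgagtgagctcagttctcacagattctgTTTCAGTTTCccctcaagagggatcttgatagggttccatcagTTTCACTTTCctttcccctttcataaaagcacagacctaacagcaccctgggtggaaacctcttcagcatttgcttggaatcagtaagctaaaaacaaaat

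IFI6 and RSAD2 were the effectors with groups apart in the higher direction. IFI6 (204415_at), a small membrane protein that limits cell death and viral replication, read 5.71, 4.91 and 6.22 with C/EBPbeta-2 and 4.85, 4.74 and 4.30 in control. C/EBPbeta-2 replicate 2 exceeded control replicate 1 by little. The difference was 0.98 (SE 0.35, unadjusted p = 0.0278, adjusted p = 0.739, limma), with 0.06 at the low spike-in level and 1.44 at the high one. RSAD2 (viperin; 213797_at), which makes a chain-terminating nucleotide, read 3.90, 3.90 and 3.61 against 3.55, 3.44 and 3.41. It differed by 0.33 (SE 0.15) at a mean below every array median, where a small difference is least certain.

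Apart from IFI6, RSAD2, OAS1, OAS3, IFI44L and IFI44, the effectors overlapped between groups. The 23 effectors had a median difference of 0.03, with 12 above 0 and 11 below it, and a range from -1.81 (IFI44L) to 1.14 (TRIM22). There were 10 of them with a mean below every array median. The GTPases MX1 and MX2, which trap viral nucleocapsids, differed by -0.26 (SE 0.16) and -0.09 (SE 0.26), and both were among these dim genes, as were IFIT1 (0.10), IFIT2 (-0.11), CMPK2 (0.52) and SAMD9L (0.31). Among the others, EIF2AK2, the kinase PKR that halts translation, differed by 0.15 (SE 0.19), IFI27 by 0.08 and the exonuclease ISG20 by -0.28.

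All 3 measured interferon regulatory factors of the set stood above 0 over the 6 arrays, and none was called. IRF1 (202531_at), which responds mainly to interferon gamma, read 5.82, 5.97 and 5.83 with C/EBPbeta-2 and 5.66, 5.30 and 5.64 in control. These groups did not overlap, with a difference of 0.34 (SE 0.16, adjusted p = 1.00, limma), and its second probe set gave 0.13 with overlap. It was 0.23 without control replicate 2. IRF7 (208436_s_at), the factor that amplifies type I interferon, read 5.87, 5.70 and 6.26 against 5.74, 5.63 and 5.40, a difference of 0.35 (SE 0.20) with C/EBPbeta-2 replicate 2 below control replicate 1. It was 0.19 without C/EBPbeta-2 replicate 3 and -0.04 at the low spike-in level. IRF9 (203882_at), the DNA-binding part of the complex with STAT2, read 6.81, 6.89 and 7.82 against 7.11, 5.83 and 6.48. It overlapped between groups (0.70, SE 0.41) and differed by -0.22 at the low spike-in level and by 1.16 at the high one. It was 0.37 without C/EBPbeta-2 replicate 3 and 0.38 without control replicate 2.

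The ISG15 system showed no call. ISG15 is a ubiquitin-like protein, HERC5 attaches it, USP18 removes it, and HERC6 is a relative of HERC5. ISG15 (205483_s_at) read 7.39, 5.96 and 7.40 with C/EBPbeta-2 and 5.93, 7.06 and 5.85 in control. The 2 arrays of low spike-in level were low together in this gene, beside control replicate 3, and the groups overlapped (0.64, SE 0.50, adjusted p = 1.00, limma). USP18 differed by 0.06 (SE 0.20), HERC5 by 0.36 (SE 0.25) and HERC6 by 0.44 (SE 0.33).

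SP110 is a nuclear body protein. Its probe set 208012_x_at read 7.37, 7.62 and 8.03 with C/EBPbeta-2 and 7.06, 7.16 and 6.75 in control, with no overlap. The difference was 0.68 (SE 0.22, unadjusted p = 0.0196, adjusted p = 0.659, limma), from 0.50 to 0.83 when any 1 array was left out. It was 0.20 between the 2 arrays highest in 18S RNA and 0.92 among the other 4. All 5 probe sets of SP110 were above 0, from 0.13 to 0.93, and the groups did not overlap in 3 of them. All 5 carry a suffix for probes that may match more than 1 transcript, so they may not be separate observations. The other 4 induced genes of mixed function overlapped: the ADP-ribosyltransferases PARP9 (0.09) and PARP14 (0.31), the NMI partner IFI35 (0.09) and the apoptosis factor XAF1 (0.07), the last below every array median.

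None of the 5 antigen-processing genes was called. Their differences ran from -0.16 to 0.49, with a median of 0.02, the groups overlapped in each, and 0 had an unadjusted p under 0.05. B2M, the light chain of MHC class I, read 12.23, 12.04 and 12.18 (201891_s_at) with C/EBPbeta-2 and 12.40, 12.37 and 12.16 in control. These values were bright and close on all 6 arrays, with a difference of -0.16 (SE 0.15, 95% interval -0.52 to 0.20, adjusted p = 1.00, limma). Its dimmest probe set gave -0.68.

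TAP1 and TAP2 form the transporter that carries peptides into the endoplasmic reticulum. TAP1 (202307_s_at) read 6.83, 7.52 and 7.28 against 7.40, 7.27 and 7.46, with C/EBPbeta-2 replicate 1 lowest (-0.16, SE 0.21, 95% interval -0.67 to 0.34), or 0.03 without that array. TAP2 (225973_at) read 7.94, 8.53 and 7.98 against 7.91, 7.97 and 8.05, with C/EBPbeta-2 replicate 2 highest (0.18, SE 0.20, 95% interval -0.31 to 0.66), or -0.02 without that array. PSMB8 and PSMB9 are catalytic subunits of the immunoproteasome. PSMB8 (209040_s_at) read 7.96, 7.54 and 8.12 against 7.39, 8.11 and 8.05, a difference of 0.02 (SE 0.26, 95% interval -0.60 to 0.65). PSMB9 (204279_at) read 5.76, 5.38 and 5.95 against 5.31, 5.64 and 4.67, where the lowest value was control replicate 3 (0.49, SE 0.29, 95% interval -0.20 to 1.18). It was 0.22 without control replicate 3 and 0.07 at the low spike-in level. The standard proteasome subunits PSMB5, PSMB6 and PSMB7 differed by 0.11, 0.10 and 0.13.

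Other genes of the pathway, from lists that share no gene with the set, were not called either: limma called 0 of 104 measured genes of 113 listed, with 6 at an unadjusted p under 0.05, where 0.263% of all genes were called and 5.4% had such a p. Their median difference was 0.01, with 55 above 0 and 49 below it. All 9 measured interferon genes had means below every array median, and their differences ranged from -0.15 (IFNA1) to 0.17 (IFNL1), with IFNG at 0.16. The 14 measured receptors, kinases and regulators of the signal ranged from -0.55 (IFNGR1, a chain of the interferon gamma receptor) to 0.20 (STAT3), with SOCS1 at -0.22. The 4 measured other interferon regulatory factors ranged from -0.52 (IRF5) to 0.10 (IRF4), with IRF2 at 0.02.

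In nucleic acid sensing, 2 of 13 genes had groups apart (8.63% of all genes did), both higher. STING1, the adaptor behind cytosolic DNA sensing, read 7.49, 7.20 and 8.09 with C/EBPbeta-2 and 6.56, 7.00 and 7.08 in control (0.71, SE 0.27, adjusted p = 0.834, limma). IKBKE, a kinase that activates IRF3 and IRF7, read 6.97, 6.80 and 6.85 against 6.25, 6.68 and 6.03 (0.55, SE 0.20, adjusted p = 0.772, limma). CGAS, the enzyme that makes the messenger for STING1, differed by -0.47 and was highest on control replicate 2.

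Among 42 measured further interferon-induced genes, LAMP3 and NMI had the smallest p. LAMP3, a lysosomal membrane protein, read 4.80, 5.02 and 5.04 with C/EBPbeta-2 and 3.86, 3.66 and 3.07 in control (1.42, SE 0.23, adjusted p = 0.122, limma), with every control array below the array medians. NMI, which pairs with IFI35 and binds STAT proteins, read 7.15, 7.47 and 7.08 against 8.74, 8.11 and 8.55 (-1.24, SE 0.22, adjusted p = 0.147, limma). NMI was called with array weights. GBP1, a GTPase that attacks intracellular pathogens, differed by 1.07 (SE 0.64) with overlap. This list had a median of 0.10, with 28 genes above 0 and 14 below it.

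For MHC and peptide loading, 4 of 19 measured genes were above 0 and 15 below it, with a median of -0.10 and a range from -0.45 to 0.19. HLA-B, HLA-C, HLA-E, HLA-F and HLA-G were read at probe sets whose suffix marks probes that may match several transcripts. All of these but HLA-E were highest on control replicate 2 and lowest on C/EBPbeta-2 replicate 2, so they may not be separate observations. NLRC5, the transactivator of MHC class I genes, read 4.42, 4.35 and 4.29 with C/EBPbeta-2 and 4.83, 4.92 and 4.67 in control, close to the array medians (-0.45, SE 0.15, adjusted p = 0.644, limma). HLA-E differed by -0.37 (SE 0.23) and the immunoproteasome subunit PSMB10 by -0.30 (SE 0.27), both with overlap.

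The genes of the set were not all high or low on the same arrays. In 8 of the 42 genes (IFIT1, IFIT3, SAMD9, SAMD9L, IFIH1, HERC6, PARP9 and TAP1) the 2 arrays highest in 18S RNA were both below the other 4, a share of 19% beside 16.5% of all genes. In IFI27 alone, 2.38% of the set, they were both above, where 22.2% of all genes did so. Each array was the highest for some members, from 4 genes on C/EBPbeta-2 replicate 1 to 10 each on C/EBPbeta-2 replicates 2 and 3. The heat map of each gene across the arrays shows the contrast between groups in IFI16 and the overlap of the groups in most other genes.

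**Figure D3:**
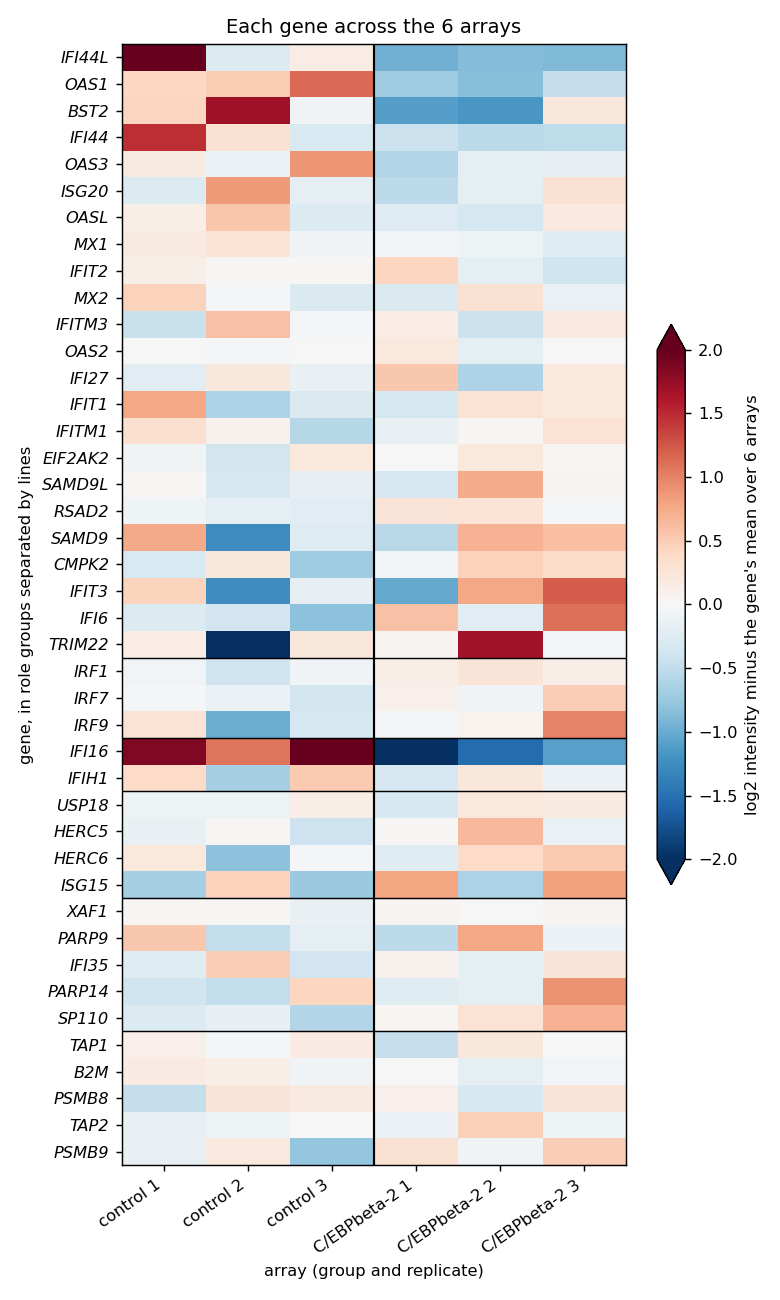
Log2 intensity of each of the 42 genes (rows, by role) on each array (columns) minus the gene's mean over the 6 arrays; red is above and blue below the mean, and values past 2 in size share the end colours. IFI16 and OAS1 are red on all 3 control arrays and blue on all 3 C/EBPbeta-2 arrays, while IFI44L is darkest on control replicate 1.

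Of 22 members with several probe sets, all probe sets lay on 1 side of 0 in 15 and on both sides in 7 (OAS2, OAS3, EIF2AK2, IFIH1, XAF1, PARP14 and TAP2). Of these 7, OAS3 is the only one named above with groups apart.

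**Figure D4:**
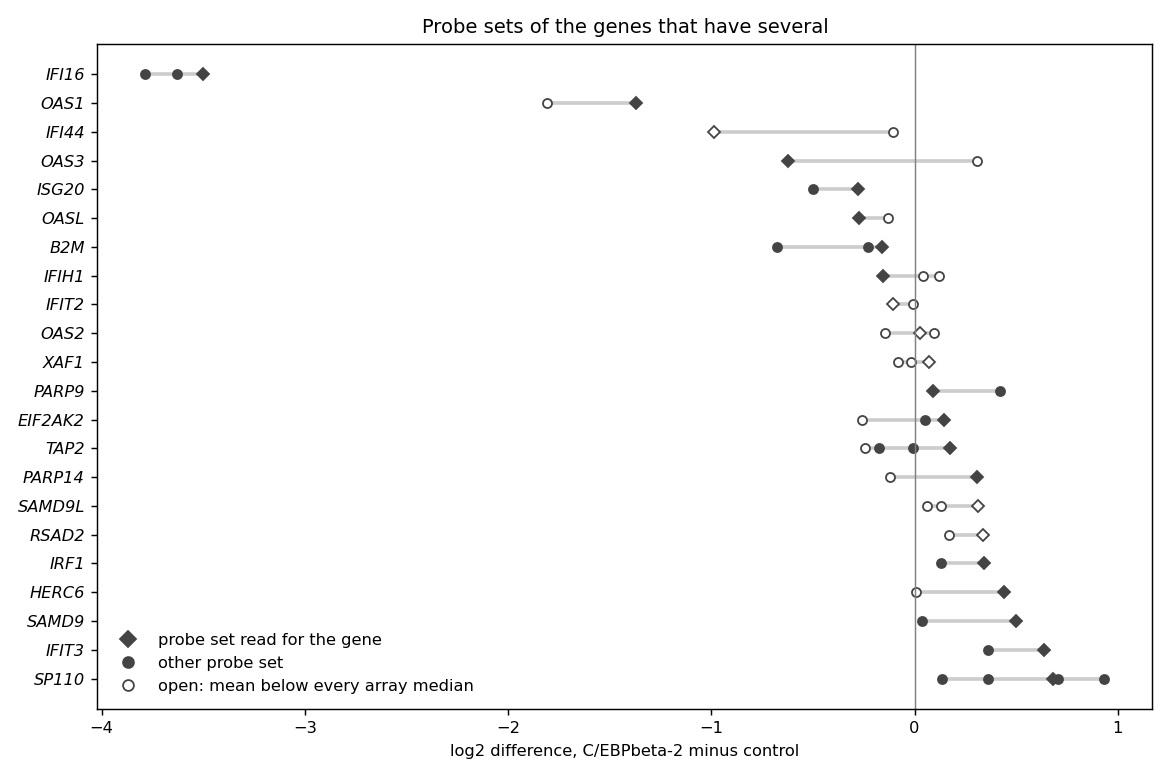
Log2 difference (C/EBPbeta-2 minus control) of every probe set of the 22 genes that have more than 1; the diamond is the probe set with the highest mean, which was read for the gene, and open symbols have a mean below every array median. The 3 probe sets of IFI16 lie between -3.78 and -3.50 and the 5 of SP110 between 0.13 and 0.93.

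Promoter windows were found for 35 of the 42 measured genes (49 windows, since some genes have several start sites; RefSeq, GRCh38.p14). OASL, TRIM22, IRF7, IFIT2, MX2, USP18 and OAS2 had none in the table. The response element letters, which can overlap itself and the gamma-activated site, was present in 24 of the 35 genes (68.6%) and in 57.1% of their windows, against 3.57% of all 35116 windows of this length. The gamma-activated site TTCNNNGAA was present in 12 genes (34.3%) and 26.5% of windows, against 7.66% of all windows, and the C/EBP motif TTGCNNAA in OAS1, HERC6 and SP110 (8.57% of genes; 6.12% of windows, against 10.5% of all). The genes with a response element match had a median difference of 0.09 (14 above 0, 10 below). The 11 without one, IFI16 and OAS1 among them, had a median of 0.34 (9 above 0, 2 below). The search took exactly 2 bases between the GAAA runs. The windows of OAS1 and of the second IFI16 start hold gaaacgaaa, a closer spacing that it did not count, so this split depends on the letters chosen. A match describes letters and not a bound site.

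**Figure D5:**
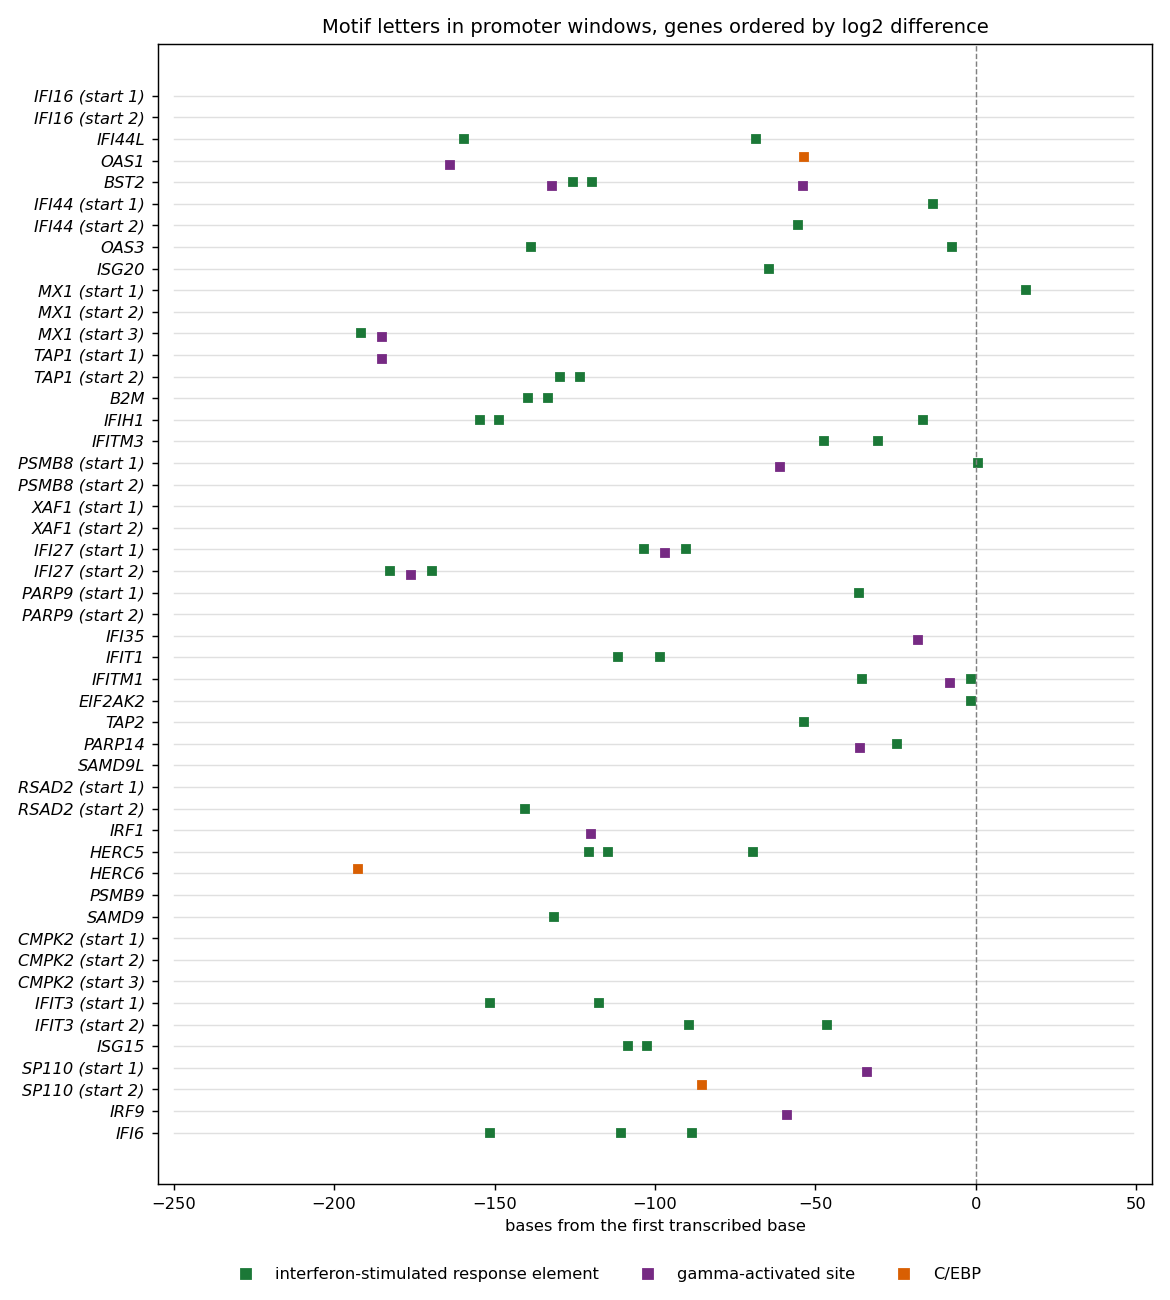
Positions of motif letters in 49 promoter windows of 35 genes, in bases from the first transcribed base (dashed line at 0), with genes ordered from the lowest log2 difference at the top to the highest at the bottom. Response element matches (green) occur along the whole order of differences, and neither IFI16 window holds a match to the letters searched.

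The markers of other cell types were followed by list. Of 11 measured leukocyte markers, 8 had a mean below every array median, PTPRC (CD45) among them. Their summed linear intensity was 279 to 333 with C/EBPbeta-2 and 240 to 264 in control. CD14, the brightest of them, was higher by 0.92 (adjusted p = 0.260, limma). PTPRC, CD3D, CD2 and ITGAM were also above 0, by 0.09 to 0.29. CD3E, MS4A1, CSF1R, TYROBP, FCER1G and NKG7 were below 0, from -0.50 (MS4A1) to -0.04 (TYROBP). No leukocyte marker was called. Of 6 fibroblast markers, 4 were below every array median (PDGFRA, PDGFRB, COL1A2 and LUM), and the sum was 289 to 480 with C/EBPbeta-2 and 672 to 3626 in control through DCN, which differed by -2.61 (adjusted p = 0.445, limma). Plasmacytoid dendritic cell markers summed to 142 to 214 and 176 to 226, with CLEC4C and GZMB below every array median and IL3RA, TCF4 and IRF8 not. The endothelial markers summed to 74.2 to 82.5 and 80.1 to 110, with 3 of 4 below every array median. Of the 7 measured mammary epithelial markers, all above the array medians, 2 were called, KRT14 (-3.00) and CDH1 (-2.14), both lower with C/EBPbeta-2. The epithelial markers summed to 12624 to 15115 with C/EBPbeta-2 and 20745 to 28318 in control, mainly through KRT14 (group means 10.33 and 13.34, log2 intensity). KRT5 (-0.13), KRT18 (0.09), KRT8 (-0.24), EPCAM (0.03) and EGFR (0.05) overlapped between groups. The part of these markers in the differences of IFI16, OAS1 and the other genes was not tested.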

How the data were processed

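Per the labels' protocols, total RNA was purified with DNase, reverse transcribed from oligo-dT and labelled with biotin by in vitro transcription for Affymetrix arrays. The authors deposited 1 intensity per probe set and array; per the submitters' processing notes these come from RMA, and the software, its version and the return to a linear scale are not given in the sources used here. Log2 was taken without a pseudocount or another normalization. The 62 control probe sets were set aside. Limma 3.58.1 in R 4.3.3 was fitted to 54613 probe sets over all 6 arrays with no covariate, the probe set with the highest mean stood for its gene, and p-values were adjusted (Benjamini-Hochberg) over 19775 genes. The fit was tested on simulated data. The simulated arrays varied independently, unlike the arrays here, so this does not show how the fit handles their shared variation.

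The members and lists were chosen with earlier results of these data known. Values on every array are given for members with an unadjusted p under 0.05, a difference of 1 or more in size or groups that do not overlap, for the transcription factors and antigen-processing genes, and for the 5 with the widest range within a group; of each pathway list up to 3 genes with the largest difference are named. Members named outside this rule, such as ISG15, were picked with their values in view. The alternatives left out each array, added a replicate or spike-in term, and changed normalization, dim probe sets, variance, probe set choice and offset. No detection calls were used here; 3 arrays per group limit the precision. Python 3.11.15 and matplotlib 3.10.9 drew the plots.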

Additional observations from a re-analysis of the deposited data

How the results depend on the processing

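Of the 42 genes, 1 (IFI16) was called after quantile normalization, without dim probe sets, with a trended and robust prior, with array weights and with the mean of probe sets, where 0 were called otherwise. The number at an unadjusted p under 0.05 was 10 with array weights, 3 without shared-probe sets (which leaves 32 genes and gives no value for IFI16) and 4 to 8 with 1 array left out (8 without control replicate 2). The number with groups apart was 11 to 16 with 1 array left out (16 without C/EBPbeta-2 replicate 1, 15 without control replicate 2, 14 without either C/EBPbeta-2 replicate 2 or control replicate 3), 15 at the high spike-in level and 21 without both arrays highest in 18S RNA, where fewer arrays make separation easier. Of the pathway genes, 1 (NMI) was called with array weights. The median difference of the set stayed between 0.000611 and 0.198. Of 20 genes followed through the alternatives, 14 kept the sign of their difference in each one and 6 (IRF7, IRF9, TAP1, TAP2, PSMB8 and SAMD9, none called) did not. Over all genes, 52 calls became 122 with array weights, 17 with a pseudocount of 16, 13 at the high spike-in level, 0 without both arrays highest in 18S RNA and 7 to 57 with 1 array left out (57 without control replicate 2, and 7 to 18 without any other 1). Leaving out the arrays highest in 18S RNA, and a prior variance from 1 probe set per gene (IFI16 adjusted p = 0.0541), were chosen after seeing the data. The cause of these moves was not tested, and the 3 arrays per group and the missing detection calls limit what can be told of dim genes.

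The replicate numbers did not pair the arrays: deviations of same-numbered arrays correlated at -0.45, -0.55 and 0.42, and only number 3 correlated best with its own. With the replicate block, 0 of the 42 genes and 0 of all genes were called, and 2 of the 42 had an unadjusted p under 0.05; for IFI16 the adjusted p was 0.234.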
